A study of Mus musculus with 10 samples.

Results

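Germline RNA-binding and piRNA pathway genes were followed in cultured mouse cells through 8 genes, *Ddx4*, *Dazl*, *Dnd1*, *Nanos3*, *Mael*, *Piwil2*, *Tdrkh* and *Asz1*. They were taken by symbol from the platform annotation of the array, which names 18193 genes by probe sets that carry 1 symbol. Of the 8 genes, 7 had such a probe set, with 9 probe sets among the 45101 on the array, and 7 probe sets of 6 genes passed the filter for testing. *Nanos3*, an RNA-binding repressor that protects migrating germ cells, has no probe set that carries its symbol alone, and its RNA was not analysed here.

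Germ cells carry a set of proteins that act on RNA rather than on DNA. Some bind messenger RNAs and set their stability or translation, as *Dazl*, *Dnd1* and *Nanos3* do, and others build the granules in which PIWI proteins and their small partner RNAs, the piRNAs, silence transposons. In the embryo the protein of *Ddx4* (also called *Mvh*) is first detected once primordial germ cells (PGCs) have entered the gonad, whereas *Dnd1* and *Nanos3* act earlier. The paper found RNA of *Ddx4* and *Dazl* in PGCs sorted from embryos before that stage.

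RNA was measured on 10 Affymetrix Mouse Genome arrays, with 2 arrays for each of 5 sorted populations. The embryonic stem cells (ESCs) were V6.5 cells, a line from a 129xBL6 F1 cross, grown on mouse embryonic fibroblasts and sorted at day 0 as SSEA1+/cKit+. Hanging-drop embryoid bodies (EBs) were differentiated to day 6 without LIF. In vitro derived PGCs (iPGCs) were sorted from V6.5 EBs as SSEA1+/cKit bright and from EBs of the Oct4-Gfp line, which has a mixed background, as Oct4-gfp+/cKit bright. Somatic cells of the same day were SSEA1-/cKit- in V6.5 EBs and Oct4-gfp-/cKit- in Oct4-Gfp EBs. The green reporter of that line stands for transcription of *Pou5f1*. No member was used in any sort. All ESC arrays were V6.5, so a comparison of Oct4-Gfp cells with ESCs changes the line, the sort and the cell type at once. Neither the labels nor the methods say whether the replicates are separate cultures, and each p-value measures only the spread between these arrays.

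The values are signal intensities on a linear scale with a trimmed mean of 500 on every array. Each array's own background was the 95th percentile of its 43 olfactory receptor probe sets, and it lay between 12.6 and 25.4. Summed signals of 4 pluripotency markers (*Pou5f1*, *Nanog*, *Sox2*, *Fut4*) were 17335 to 18253 (ESCs), 15505 to 16336 (iPGCs) and 437 to 1029 (somatic cells). Those of 6 PGC markers were 12220 to 13256, 21576 to 23780 and 2543 to 3510 in the same order. *Fut4* of the pluripotency list ran the other way from its list, with means of 27.0 (ESCs), 60.8 (iPGCs) and 195 (somatic cells). Of 7 fibroblast markers all were measured, with sums of 948 to 1067 (ESCs), 456 to 746 (iPGCs) and 9466 to 14410.5 (somatic cells). *Lox*, a collagen cross-linking enzyme, had a mean of 163 in the ESCs and was within background on every iPGC and somatic array. *Thy1* of the same list was also highest in the ESCs, with means of 435 (ESCs), 146 (iPGCs) and 217 (somatic cells). *Col1a1* alone of this list was higher in iPGCs than in ESCs, with means of 134 (ESCs), 362 (iPGCs) and 6428 (somatic cells). The 5 measured mesoderm and heart markers summed to 13585 to 15271 in somatic cells against 175 to 214 in ESCs and 573 to 1061 in iPGCs. Summed signals were also highest in somatic cells for 5 endoderm markers (2298 to 3044, against 48.3 to 55.2 in ESCs and 74.9 to 322 in iPGCs) and for 6 markers of blood and endothelium (3683 to 12208, against 481 to 537 and 442 to 753). *Pecam1* of the latter list ran the other way with means of 417, 460 and 246 in that order (ESCs, iPGCs, somatic cells), and *Afp* of the former was near background with 17.0, 9.35 and 14.1. The 3' to 5' signal ratio of *Gapdh*, which rises with RNA degradation, was 1.28 to 1.30 in ESCs, 1.51 to 1.63 in V6.5 iPGCs, 2.02 to 2.37 in Oct4-Gfp iPGCs and 1.65 to 2.05 in somatic cells. It moved with the groups, and its part in each comparison with ESCs below was not tested beyond a fit that carried it as a covariate.

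Promoter sequences of 3 members are shown as the upstream DNA of a gene that rose in iPGCs (*Dazl*), a gene high in both iPGCs and ESCs and under background in somatic cells (*Mael*) and a gene that was present in all groups (*Tdrkh*). They are the 250 bases before the annotated start from RefSeq on GRCm38.p6, written 5′ to 3′ on the strand of the gene, and the capitals mark CpG pairs, where mammalian DNA is methylated. The *Dazl* window is chr17:50293621-50293870 on the minus strand, next to the gene at 50279393 to 50293620. The *Mael* window is chr1:166238745-166238994 on the minus strand, next to the gene at 166201385 to 166238744. The *Tdrkh* window is chr3:94412994-94413243 on the plus strand, and its last base is the first of the gene, which runs to 94434854.
Dazl promoter: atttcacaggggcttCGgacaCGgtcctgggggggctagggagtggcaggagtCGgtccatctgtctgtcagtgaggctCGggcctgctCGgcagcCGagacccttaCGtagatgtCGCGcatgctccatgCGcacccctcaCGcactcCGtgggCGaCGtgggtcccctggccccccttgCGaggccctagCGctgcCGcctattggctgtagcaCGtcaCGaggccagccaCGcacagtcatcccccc
Mael promoter: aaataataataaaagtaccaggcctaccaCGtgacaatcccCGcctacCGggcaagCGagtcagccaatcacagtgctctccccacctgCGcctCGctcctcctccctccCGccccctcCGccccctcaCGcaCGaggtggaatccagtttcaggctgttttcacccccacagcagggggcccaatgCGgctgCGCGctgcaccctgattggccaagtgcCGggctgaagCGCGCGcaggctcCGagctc
Tdrkh promoter: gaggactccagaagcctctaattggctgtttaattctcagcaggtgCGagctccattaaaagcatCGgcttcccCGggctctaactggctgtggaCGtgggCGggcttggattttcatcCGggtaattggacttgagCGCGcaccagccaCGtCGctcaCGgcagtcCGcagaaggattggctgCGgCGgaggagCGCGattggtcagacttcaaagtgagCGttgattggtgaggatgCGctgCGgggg

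These windows hold many CpG pairs. *Dazl* has 20, *Mael* 18 and *Tdrkh* 19, against a median of 6 over 32851 RefSeq promoters, and 82.1%, 78.3% and 80.3% of all promoters have fewer. The *Ddx4* window, chr13:112652311-112652560 on the minus strand, has 31, more than 94.8% of promoters, and lies inside the annotated span of the gene. *Asz1* has 15 and *Nanos3* 3 in the window. The E-box CACGTG was searched together with TTCCCGC and its reverse complement GCGGGAA, letters that resemble the E2F6 motif. CACGTG starts at position -29 of the *Ddx4* window and at -223 of the *Mael* window, and 6.02% of all promoters hold it. GCGGGAA starts at -136 of the *Ddx4* window only among the 6 members with a window, and 3.82% of all promoters hold one of its forms. The *Ddx4* window has both motifs, as 0.338% of promoters do. *Dazl*, which differed strongly between iPGCs and somatic cells, and *Tdrkh*, which did not, had a similar count of CpG pairs and neither motif. *Ddx4* and *Mael*, which hold CACGTG, were high in iPGCs and low in somatic cells. Whether any of these features bears on the signals was not tested. No promoter of *Dnd1* or *Piwil2* was in the table.

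**Figure D1:**
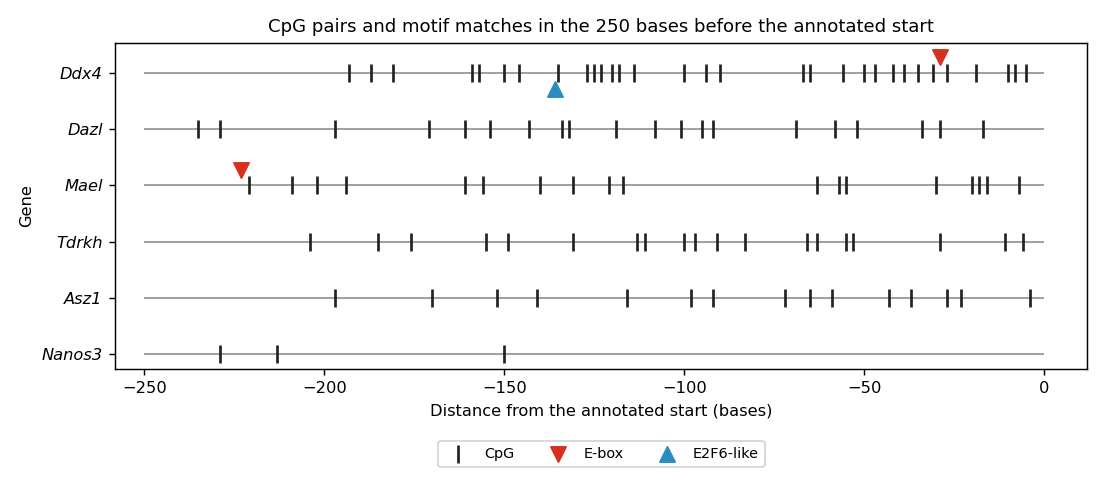
CpG pairs and motif matches in the 250 bases before the annotated start of 6 members. The horizontal axis is the distance from the start in bases, black ticks are CpG pairs, the red triangles mark CACGTG and the blue triangle marks GCGGGAA. *Ddx4* has the most ticks (31), *Nanos3* the fewest (3), and a red triangle stands at -29 in *Ddx4* and at -223 in *Mael*.

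Most members were already present in ESCs. Of the 9 member probe sets, 8 (7 genes) were above background on both ESC arrays, against 68.8% of all probe sets, and 7 (6 genes) were above it on all 4 iPGC arrays, against 62.8%. On all 4 somatic arrays only *Tdrkh* was above background, where 64.4% of all probe sets were. The exception in ESCs was 1 of the 2 *Asz1* probe sets. *Asz1* counted as present in ESCs only through values close to background, and with the maximum of the olfactory receptors as background 7 probe sets of 6 genes remained above it. The 5 genes *Ddx4*, *Dazl*, *Dnd1*, *Mael* and *Piwil2* exceeded the median of their array on exactly 6 arrays, those of ESCs and iPGCs. They passed the filter through the groups in which they were high, so their count against somatic cells is a description. In sorted bulk samples fewer cells of a type and less RNA per cell cannot be told apart.

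**Figure D2:**
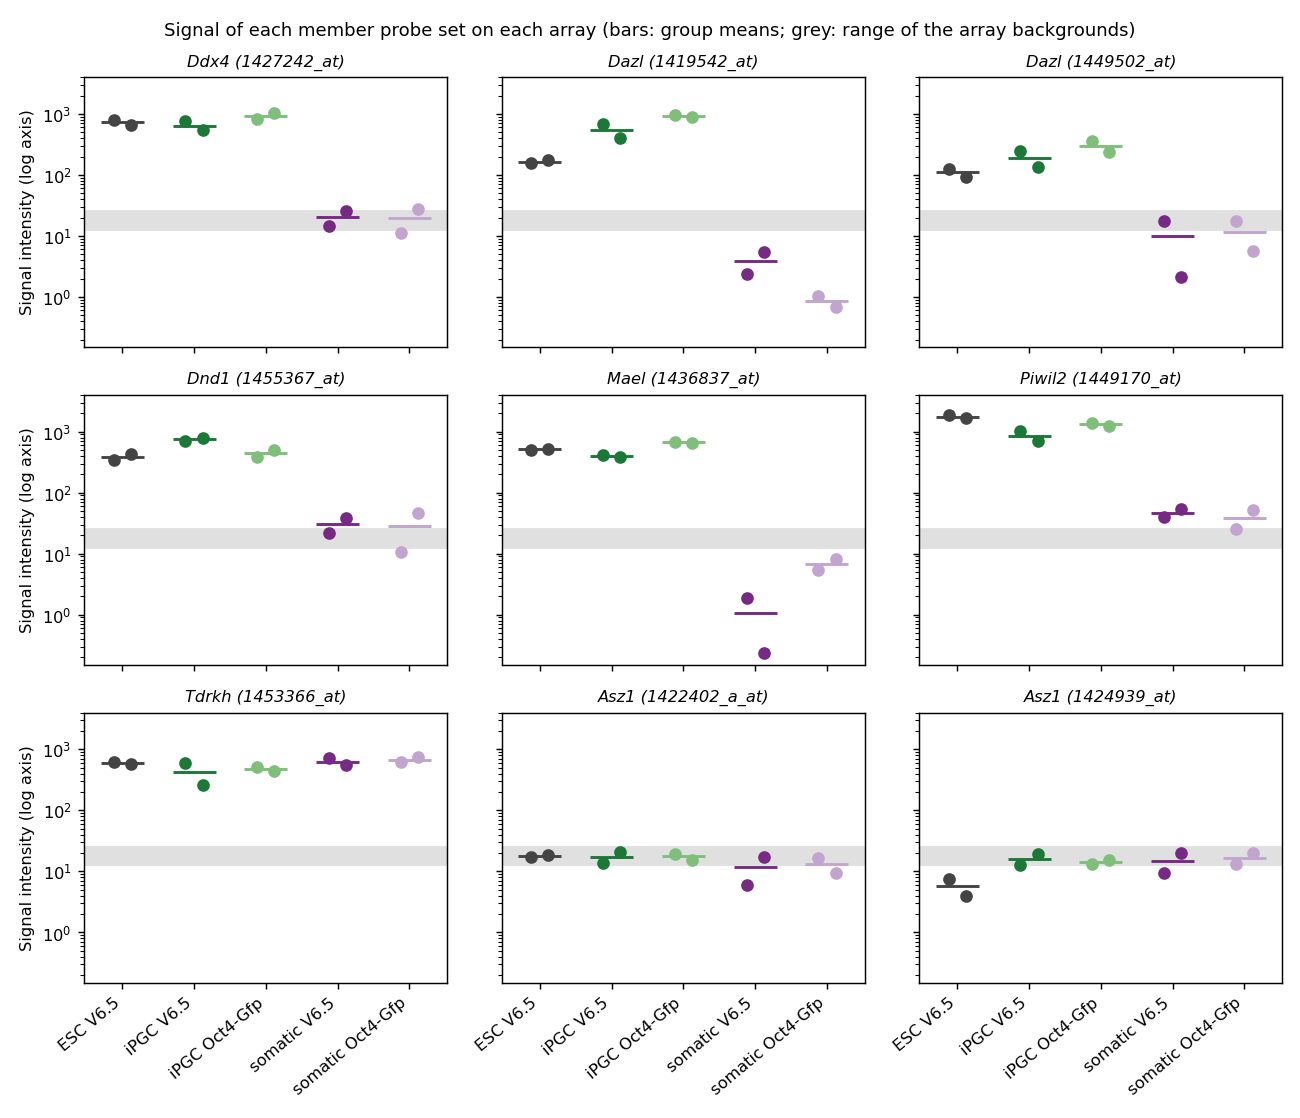
Signal of each member probe set on each array. The vertical axis is signal intensity on a log scale, points are arrays, bars are group means and the grey band spans the array backgrounds from 12.6 to 25.4. *Ddx4*, *Dazl*, *Dnd1*, *Mael* and *Piwil2* stand high in the ESC and iPGC groups and near or under the band in both somatic groups, *Tdrkh* lies above the band on every array, and *Asz1* lies in or under the band.

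*Dazl*, an RNA-binding protein that promotes translation of germ cell messages, was the member that rose from ESCs to iPGCs. Probe set 1419542_at read 155 and 175 in ESCs, 677 and 408 in V6.5 iPGCs, 973 and 881 in those of Oct4-Gfp, 2.41 and 5.38 in V6.5 somatic cells and 1.03 and 0.686 in Oct4-Gfp somatic cells. Every iPGC array was above both ESC arrays, and every somatic array was under background. Means were 165 ± 14.1, 542 ± 191 and 927 ± 65.5 (SD, n = 2 each) in ESCs, V6.5 iPGCs and Oct4-Gfp iPGCs. In limma on log2(signal + 14.8), with p-values adjusted over all probe sets tested by the Benjamini-Hochberg method, iPGCs were 1.99 higher than ESCs (SE 0.196, 3.98-fold, adjusted p = 0.00041). The change was 1.59 in V6.5 (adjusted p = 0.00292) and 2.39 in Oct4-Gfp iPGCs (adjusted p = 0.00044). With the *Gapdh* ratio as a covariate the mean difference was 2.39 and lost its call (adjusted p = 0.0832). iPGCs were at least 34.3-fold and ESCs at least 8.10-fold above somatic cells, as bounds against background.

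The other *Dazl* probe set gave the same order with a smaller change. Probe set 1449502_at read 127 and 92.9 in ESCs, 244 and 136 in V6.5 iPGCs, 365 and 235 in those of Oct4-Gfp, 17.6 and 2.14 in V6.5 somatic cells and 17.7 and 5.67 in Oct4-Gfp somatic cells. The iPGC arrays again lay above both ESC arrays, and the lowest of them was close to the higher ESC array. The difference between iPGCs and ESCs was 1.00 (95% interval 0.18 to 1.82, adjusted p = 0.0534), which did not pass the threshold. It passed in 11 of 23 alternative settings, among them without V6.5 iPGC replicate 2 (1.19, adjusted p = 0.0335) and without either V6.5 somatic array (adjusted p = 0.0421). In Oct4-Gfp iPGCs alone it was 1.32 (adjusted p = 0.033) and in V6.5 iPGCs 0.68 (adjusted p = 0.246). The call in Oct4-Gfp iPGCs was lost when any 1 of the ESC or Oct4-Gfp iPGC arrays was left out (0.065, 0.157, 0.165 and 0.0519 as adjusted p). In somatic cells 1 of 4 arrays, of V6.5, was above background for this probe set, so the fitted differences of 3.33 (iPGCs minus somatic cells, adjusted p = 3.09e-05) and -2.33 (somatic cells minus ESCs, adjusted p = 0.000686) rest on values mostly under it. Against Oct4-Gfp somatic cells alone, Oct4-Gfp iPGCs were at least 12.8-fold and ESCs at least 4.76-fold higher, as bounds.

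*Dnd1*, which binds messenger RNAs in early germ cells and recruits the deadenylase machinery, read 349 and 425 in ESCs, 702 and 787 in V6.5 and 386 and 508 in Oct4-Gfp iPGCs. In somatic cells it read 22.0 and 38.6 (V6.5) and 10.8 and 46.5 (Oct4-Gfp). The V6.5 iPGC arrays stood above all others, the Oct4-Gfp iPGC arrays overlapped the ESC arrays, and 3 of 4 somatic arrays were above background. The difference from ESCs was 0.92 in V6.5 (95% interval 0.04 to 1.81, adjusted p = 0.109) and 0.20 in Oct4-Gfp iPGCs (-0.69 to 1.08, adjusted p = 0.711), and neither passed. Without either Oct4-Gfp somatic array, whose spread enters the shared error, the adjusted p in V6.5 iPGCs was 0.028. Against somatic cells *Dnd1* was 14.1-fold higher in iPGCs (log2 3.81, SE 0.271, adjusted p = 1.06e-05) and 9.55-fold higher in ESCs (adjusted p = 8.24e-05). With somatic values near background, the size of these differences depends on the constant added to the signal. With that constant doubled, the log2 difference of iPGCs from somatic cells was 3.40.

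*Ddx4*, an RNA helicase of germ granules, was high in both ESCs and iPGCs, with no difference that passed the test. It read 805 and 656 in ESCs, 752 and 538 in V6.5 and 829 and 1029.6 in Oct4-Gfp iPGCs. These 6 values form 1 range in which the V6.5 iPGC and ESC arrays overlapped and both Oct4-Gfp iPGC arrays were the highest. Somatic arrays read 14.6 and 25.5 in V6.5 and 11.3 and 27.6 in Oct4-Gfp cells, with 1 array of each line above background. The difference between iPGCs and ESCs was 0.08 with a 95% interval of -0.50 to 0.65 (adjusted p = 0.83). A difference inside that interval cannot be told from none. The fitted difference of iPGCs from somatic cells was 4.53 on the log2(signal + 14.8) scale (SE 0.203, adjusted p = 1.14e-06), and that of somatic cells from ESCs was -4.46 (adjusted p = 4.12e-06). With somatic values at the level of background and of the added constant, the size of these differences depends on that constant.

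*Mael*, a protein of the piRNA pathway needed for transposon silencing, read 503 and 527 in ESCs, 422 and 380.1 in V6.5 and 679.6 and 649 in Oct4-Gfp iPGCs. The V6.5 iPGC arrays were below both ESC arrays and the Oct4-Gfp iPGC arrays above them, and the spread within each pair was small. In somatic cells it read 1.91 and 0.238 (V6.5) and 5.43 and 8.30 (Oct4-Gfp), all under background. The lines thus cancelled in the mean, at 0.00 between iPGCs and ESCs (95% interval -0.27 to 0.28, adjusted p = 0.982). By line the difference was -0.35 in V6.5 (-0.66 to -0.04, adjusted p = 0.0905) and 0.36 in Oct4-Gfp iPGCs (0.04 to 0.67, adjusted p = 0.0657), and neither passed. iPGCs were at least 25.4-fold and ESCs at least 25.3-fold above somatic cells.

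*Piwil2*, the PIWI protein also called MILI that binds piRNAs, was the member that was highest in ESCs. It read 1855 and 1685 in ESCs, 1009.7 and 707 in V6.5 and 1381 and 1253 in Oct4-Gfp iPGCs. All 4 iPGC arrays were below both ESC arrays, and those of V6.5 were the lower pair. Somatic arrays read 40.1 and 53.4 (V6.5) and 25.2 and 51.3 (Oct4-Gfp), and 3 of 4 were above background. iPGCs fell by 0.74 on the log2 scale from ESCs (SE 0.23, 1.67-fold, adjusted p = 0.0342). The change was -1.05 in V6.5 (adjusted p = 0.0234) and -0.42 in Oct4-Gfp iPGCs (95% interval -1.04 to 0.19, adjusted p = 0.236), which did not pass. The call in V6.5 iPGCs was lost without ESC replicate 1, ESC replicate 2 or V6.5 iPGC replicate 2 (adjusted p = 0.102, 0.083 and 0.101). The difference of all iPGCs from ESCs stayed negative but lost its call in 12 of 23 alternative settings, among them without ESC replicate 1 (-0.67, adjusted p = 0.158) and without ESC replicate 2 (-0.81, adjusted p = 0.113), without V6.5 iPGC replicate 2 (-0.61, adjusted p = 0.0707) and without either Oct4-Gfp iPGC array (-0.77 and -0.70, adjusted p = 0.0605 and 0.0781). On the log2 scale the difference of iPGCs from somatic cells in *Piwil2* was 4.25 (adjusted p = 1.08e-06) and that of somatic cells from ESCs was -4.99 (adjusted p = 1.78e-06). The size of both depends on the constant added to the signal, since the somatic values were near background.

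*Tdrkh*, a Tudor domain protein that anchors PIWI proteins at mitochondria, was present in every group. It read 629 and 585 in ESCs, 607 and 262 in V6.5 iPGCs, 519 and 448 in those of Oct4-Gfp, 719 and 548 in V6.5 somatic cells and 614 and 739 in Oct4-Gfp somatic cells. The arrays of iPGCs overlapped those of ESCs and of somatic cells, and V6.5 iPGC replicate 2 was the lowest of the 10 arrays. Both Oct4-Gfp iPGC arrays were below both ESC arrays and below both Oct4-Gfp somatic arrays, with differences of -0.32 (adjusted p = 0.477) and -0.47 (adjusted p = 0.287) that did not pass. The difference between iPGCs and somatic cells was -0.55 (95% interval -1.11 to 0.00, adjusted p = 0.082), that between iPGCs and ESCs -0.45 (-1.13 to 0.23, adjusted p = 0.25) and that between somatic cells and ESCs 0.10 (-0.58 to 0.78, adjusted p = 0.786). Without V6.5 iPGC replicate 1, where that low array stood alone for its group, the first was -0.84 (adjusted p = 0.00205) and the second -0.75 (adjusted p = 0.0137). Without the low array itself, V6.5 iPGC replicate 2, they were -0.26 (adjusted p = 0.159) and -0.16 (adjusted p = 0.475). With limma-trend the first was also called (adjusted p = 0.0359).

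*Asz1*, an ankyrin repeat protein that works with PIWI proteins at mitochondria, was near background throughout and was not tested. Probe set 1422402_a_at had means of 17.7 ± 0.982 (ESCs, SD, n = 2), 17.4 ± 3.10 (iPGCs, SD, n = 4) and 12.4 ± 5.57 (somatic cells, SD, n = 4). It was above background on both ESC arrays, on 2 of 4 iPGC arrays and on 0 of 4 somatic arrays. Probe set 1424939_at had means of 5.77 ± 2.65, 15.3 ± 3.14 and 15.7 ± 5.28 in the same order and was above background on 1 array, of V6.5 somatic cells. Both are at the limit of what these arrays could measure, and no order was read from them.

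Read together by comparison, 1 of the 7 tested probe sets was called higher in iPGCs than in ESCs (*Dazl*) and 1 lower (*Piwil2*) at an adjusted p under 0.05. Over all 26372 probe sets tested, 21.2% were higher and 20.7% lower. At 3-fold and an unadjusted p under 0.01 *Dazl* 1419542_at alone passed, where 1.80% of all probe sets were higher. Between iPGCs and somatic cells 6 probe sets of 5 genes were called in favour of iPGCs, against 26.9% of all, and the same 6 were at least 3-fold higher, against 5.32% of all. Between somatic cells and ESCs the same 6 were lower in somatic cells, against 29.7% of all, and past 3-fold, against 6.94%. Those shares are of probe sets that passed the same filter in any way, and the 6 passed it by being high in ESCs and iPGCs.

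By line, the 6 probe sets were called higher in V6.5 iPGCs than in V6.5 somatic cells, as 22.2% of all probe sets were. The fitted log2 differences were 3.08 to 4.24 for the 4 of them with a somatic array above background, and *Dazl* 1419542_at and *Mael* were at least 29.0-fold and 22.1-fold higher. In Oct4-Gfp cells the 6 were called higher as well (19.4% of all). There the difference was 3.53 for *Dnd1*, 4.69 for *Piwil2* and 4.82 for *Ddx4*, and at least 40.6-fold for *Dazl* 1419542_at, 12.8-fold for *Dazl* 1449502_at and 29.1-fold for *Mael*. They were lower in V6.5 somatic cells than in ESCs (27.2% of all) and in Oct4-Gfp somatic cells than in ESCs (27.1% of all). In V6.5 iPGCs against ESCs *Dazl* 1419542_at was called higher (15.6% of all) and *Piwil2* lower (11.7% of all). In Oct4-Gfp iPGCs against ESCs both *Dazl* probe sets were called higher (19.7% of all) and *Piwil2* was not called (22.7% of all were lower). These comparisons share the same 2 ESC arrays.

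**Figure D3:**
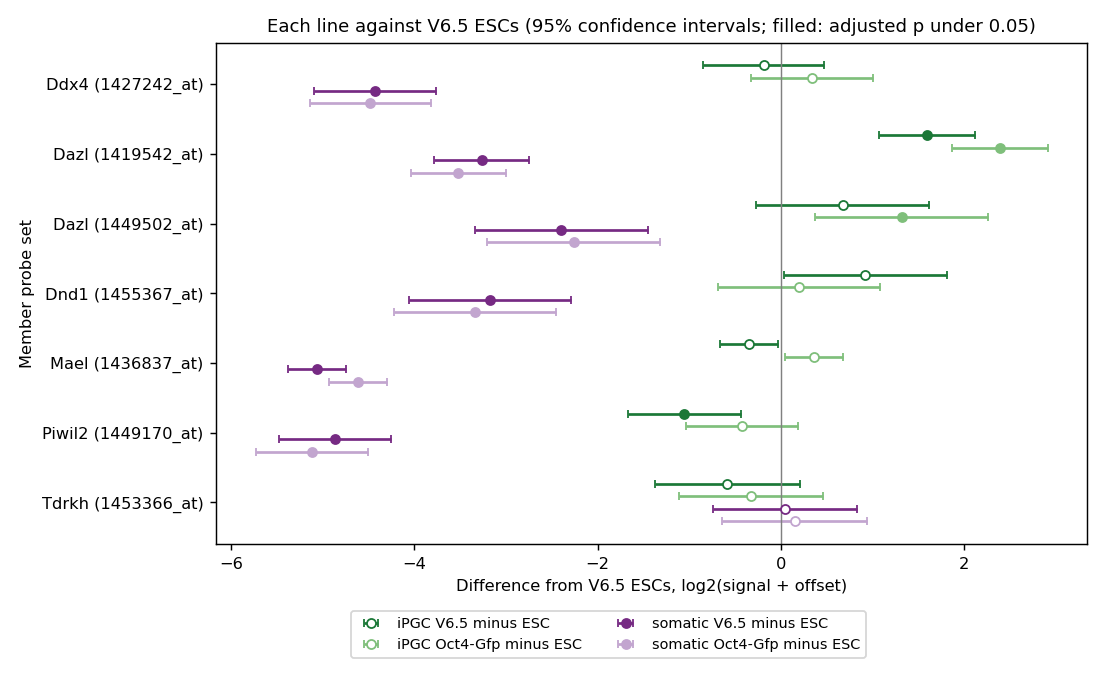
Difference of each line from V6.5 ESCs for the 7 tested probe sets, with 95% confidence intervals. The horizontal axis is the difference in log2(signal + 14.8), green is iPGCs, purple is somatic cells, the paler shade is the Oct4-Gfp line, and filled points have an adjusted p under 0.05. Both *Dazl* points of iPGCs for 1419542_at lie right of 0 at 1.59 and 2.39, *Piwil2* in V6.5 iPGCs lies left at -1.05, the somatic points of 5 genes lie at fitted values between -5.11 and -2.26 (those of groups under background depend on the added constant), and all *Tdrkh* points are open.

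Between the lines no member passed in limma. For Oct4-Gfp iPGCs minus V6.5 iPGCs 0 of 26372 probe sets were called, a background of 0%, although 5526 of all probe sets and 3 of the 7 member probe sets had an unadjusted p under 0.05. The members were *Mael* with 0.71 (95% interval 0.40 to 1.02, adjusted p = 0.071), *Dazl* 1419542_at with 0.80 (0.28 to 1.32, adjusted p = 0.119) and *Piwil2* with 0.63 (0.02 to 1.24, adjusted p = 0.229), all higher in Oct4-Gfp iPGCs. *Dnd1* had -0.73 (-1.61 to 0.16), the sole member tested that was lower there. Line and sort changed together in this comparison, and so did the *Gapdh* ratio. The difference between lines in the contrast of iPGCs with somatic cells was called for 4 probe sets of the array (0.0152%) and for 0 members, of which *Dazl* 1419542_at (1.05, adjusted p = 0.371) and *Piwil2* (0.88, adjusted p = 0.473) had an unadjusted p under 0.05 among 2758 probe sets.

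Other genes of the piRNA pathway and germ granules were counted in a list of 22, of which 20 had a probe set and 16 were tested, each through its brightest probe set. Between iPGCs and somatic cells 14 of 16 were higher in iPGCs and 1 was lower (26.9% and 31.4% of all probe sets), with a median of 2.61 on the log2 scale against -0.03 over all probe sets tested. Between somatic cells and ESCs 13 were lower and 1 was higher (29.7% and 33.6% of all probe sets), with a median of -2.76 against 0.06. The list included genes that, like the members, could pass the filter by being high in ESCs and iPGCs. *Tdrd12*, a Tudor domain helicase, had means of 4086 (ESCs), 3916 (iPGCs) and 61.0 (somatic cells), and was 5.78 higher in iPGCs than in somatic cells (adjusted p = 4.17e-07). *Tex19.1*, which limits transposons in germ and pluripotent cells, was 4.71 higher (means 3533, 5342 and 189). *Stk31*, a Tudor domain kinase-like protein, stood in iPGCs at least 24.7-fold above somatic cells, and ESCs exceeded somatic cells at least 10.2-fold in *Gtsf1*, a zinc finger partner of PIWI proteins. *Tdrd7*, a Tudor protein that is also made outside the germline, ran the other way with means of 44.4, 110 and 186 in ESCs, iPGCs and somatic cells.

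From ESCs to iPGCs 5 genes of the same list rose, 4 fell and 7 did not pass, near the shares of all probe sets (21.2% and 20.7%), with a median of 0.09 against 0.02 over all probe sets. *Stk31* rose by 1.22, *Exd1*, an exonuclease-like protein of piRNA biogenesis, by 1.20, and *Tdrd7* by 1.10 (adjusted p = 0.00311, 0.000993 and 0.00874). *Piwil4*, the PIWI protein also called MIWI2 that enters the nucleus, read 194 and 174 in ESCs and 36.9, 22.5, 28.4 and 43.1 on the iPGC arrays, so that no array overlapped, and fell by 2.08 (adjusted p = 0.000238). *Pld6*, the mitochondrial protein also called Zucchini, fell by 1.15 and *Gtsf1* by 0.65 (adjusted p = 0.000751 and 0.0149). Without ESC replicate 1 the calls of *Tdrd7* and *Gtsf1* were lost (adjusted p = 0.0725 and 0.118). *Piwil1* and *Henmt1*, the enzyme that methylates the ends of piRNAs, were within background on all 10 arrays. The iPGC values of *Piwil4* were all under the lowest array median (53.7), and its somatic mean was 2.41. *Piwil4* thus passed the filter only through the ESC arrays, and its fall from ESCs is a description. With iPGC values near background, the size of that fall depends on the added constant. The probe sets of *Stk31*, *Piwil4* and *Gtsf1* are of a type that can cross-hybridise with related sequences.

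**Figure D4:**
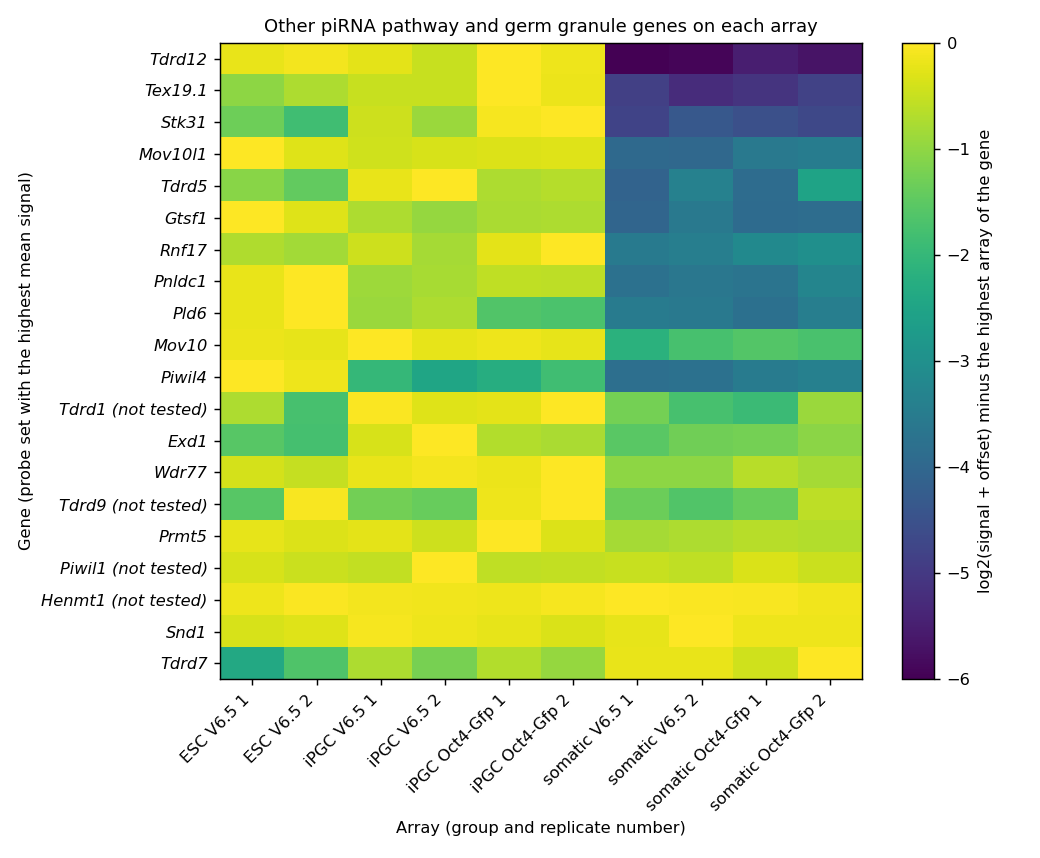
The 20 other piRNA pathway and germ granule genes on each array. Rows are genes, columns are arrays, and the colour is log2(signal + 14.8) minus the highest array of the same gene, from 0 (yellow) to -6 (dark). The rows from *Tdrd12* to *Pld6* are dark in all 4 somatic columns, *Piwil4* is bright in the ESC columns alone, and *Tdrd7* is dimmest there.

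Of 25 tested germline and translational RNA-binding protein genes, 8 were higher in iPGCs and 8 in somatic cells, near the shares of all probe sets (26.9% and 31.4%), with a median of 0.04. *Rbm47*, an RNA editing cofactor, was in iPGCs 5.67 above somatic cells and 1.87 above ESCs on the log2 scale, with means of 788.5 (ESCs), 2919 (iPGCs) and 44.1 (somatic cells). *Elavl2*, a Hu family RNA stabiliser, was 3.43 higher than in somatic cells, and *Cpeb1*, which controls polyadenylation in the cytoplasm, was at least 6.76-fold higher. *Samd4*, a Smaug family repressor, and *Bicc1*, a KH domain repressor, were lower in iPGCs than in somatic cells, with fitted differences of -3.97 and -1.97. Means in ESCs and iPGCs were 14.5 and 19.5 for *Samd4* and 44.5 and 43.1 for *Bicc1*, under the lowest array median (53.7). Both could pass the filter by being high in somatic cells, as *Rbm47* and *Cpeb1* could by being high in ESCs and iPGCs. These differences are thus a description. That of *Samd4*, near background in iPGCs, depends in size on the added constant. Against ESCs 6 genes of the list rose (21.2% of all probe sets did), *Rbm46* among them by 1.38, and 4 fell (20.7% of all), with *Tia1* at -0.99, *Msi2* at -0.79 and *Dazap1*, a binding partner of *Dazl*, at -0.69. The call of *Dazap1* was lost without ESC replicate 2 (adjusted p = 0.0587).

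The CCR4-NOT deadenylase is the complex through which *Dnd1* and Nanos proteins are known to act. Its list held subunit genes and the adaptor genes *Tob1*, *Tob2*, *Btg1* and *Btg2*, and all 14 genes with a probe set were tested. Counts of CCR4-NOT genes here and below include these adaptors. Of them, *Tob2* and *Btg1* rose from ESCs to iPGCs, and *Tob1* and *Btg2* fell. Between iPGCs and ESCs 5 rose and 3 fell (21.2% and 20.7% of all probe sets), and against somatic cells 4 were higher and 3 lower (26.9% and 31.4% of all). With median centring or limma-trend 7 were higher than in somatic cells. *Cnot6*, a catalytic subunit, had means of 685 (ESCs), 1178 (iPGCs) and 2015 (somatic cells). *Btg2*, an antiproliferative adaptor, was lower in iPGCs than in ESCs (-0.96, adjusted p = 0.0109) and than in somatic cells (-1.12, adjusted p = 0.000971). The first call was lost without ESC replicate 1 or ESC replicate 2 (adjusted p = 0.0611 and 0.0651). Of 18 Argonaute and microRNA machinery genes, 6 rose from ESCs to iPGCs (21.2% of all probe sets did) and 12 passed in neither direction, while 4 were higher in iPGCs and 7 in somatic cells when those were compared (26.9% and 31.4% of all). *Ago4*, an Argonaute protein, had means of 25.8, 77.6 and 164 in ESCs, iPGCs and somatic cells, and *Dgcr8*, the partner of Drosha, rose by 0.92 from ESCs to iPGCs (adjusted p = 0.0012).

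Genes with the pattern most like that of a member were named by Pearson r over the 10 arrays on the log2 scale, as a description. Since the 5 germline members are high on 6 arrays and low on 4, any gene with that split has a high r. For *Dazl* they were *Rbbp5*, a histone methyltransferase subunit, *Fancl*, a ubiquitin ligase of DNA repair, and *Stk31* (r = 0.996, 0.994 and 0.993). For *Mael* they were *Usp2*, *Galnt6* and *Dppa2* (r = 0.998, 0.997 and 0.997), and for *Ddx4* *Bid*, *Cd1d1* and *Kat6b* (r = 0.998, 0.997 and 0.997). For *Piwil2* they were *Usp28*, *Hormad1*, a protein of the meiotic chromosome axis, and *Zbtb8a* (r = 0.998, 0.997 and 0.996). *Hormad1* had means of 480.5 (ESCs), 294 (iPGCs) and 2.72 (somatic cells), the same order as *Piwil2*. For *Dnd1* they were *Bcas3*, *Haus4* and *Necab2* (r = 0.997, 0.995 and 0.992), and for *Tdrkh* *Sync*, *4933439C10Rik* and *Ccnt2* (r = 0.967, 0.950 and 0.941).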

How the data were processed

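RNA of 5 sorted populations was measured on 10 arrays. The authors deposited linear signal intensities, made with MAS5 as their processing notes state (version not given in the sources used here) and scaled to a trimmed mean of 500 with 2% left out at each end. The D-Chip expression values that the paper's methods describe were not used here. No detection calls were used, and the number of arrays limits the precision.

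The log2 of the signal plus 14.8 (the 25th percentile of all signals) was used without 64 control probe sets. A probe set was tested where 2 or more arrays had it above the array median (26372 in all). The 5 group means were estimated in limma 3.58.1 (R 4.3.3) with 5 residual plus 2.92 prior degrees of freedom, after a check on simulated data, with Benjamini-Hochberg adjustment over all tested probe sets. The added constant makes fold changes of low genes too small. Where a group lay at or under background on every array, the fold is a lower bound. The text names every member, up to 3 genes per direction, list and comparison (adjusted p under 0.05, groups not overlapping), the 3 genes most like each member, and marker genes. Genes outside the members stand for their probe set of highest mean. The members and lists were chosen with earlier results of these data known. Alternatives changed the offset, filter, normalization, model, covariate, background or arrays. Plots were drawn with matplotlib 3.10.9.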

Additional observations from a re-analysis of the deposited data

How the results depend on the processing

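All 23 alternatives, 10 of which left out 1 array, kept the calls of *Ddx4*, *Dnd1*, *Mael*, *Piwil2* and both *Dazl* probe sets in the comparison of iPGCs with somatic cells, and kept those of somatic cells with ESCs except for *Dazl* 1449502_at with the *Gapdh* ratio as covariate (adjusted p = 0.212). In 28 instances a value of a single member probe set changed its sign, none with an adjusted p under 0.05, and the cause was not tested. Median centring moved the median of all probe sets between iPGCs and somatic cells from -0.03 to 0.18, that between somatic cells and ESCs from 0.06 to -0.15, and that between the Oct4-Gfp populations of day 6 from -0.11 to 0.34, and the member changes move with it.

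The *Gapdh* covariate raised the median SE of iPGCs against ESCs (0.386 against 0.171 without it). With it limma called 0 probe sets and 0 member probe sets there (4880 at an unadjusted p under 0.05), 0 and 0 for Oct4-Gfp iPGCs (3336 unadjusted), 2040 and 1 for V6.5 iPGCs, 7497 between somatic cells and ESCs, 7937 and 6184 for V6.5 and Oct4-Gfp somatic cells against ESCs, and 7687 between the Oct4-Gfp populations of day 6. *Dazl* 1419542_at was then 2.39 higher in iPGCs than in ESCs (adjusted p = 0.0832), while *Ddx4*, *Dnd1* and *Mael* stood at -0.71, -1.01 and -0.084. In Oct4-Gfp iPGCs *Ddx4*, *Dnd1* and *Tdrkh* stood at -0.81, -2.10 and 0.10, and *Ddx4* stood at -0.029 in the line difference and -0.20 between iPGC lines. From ESCs to iPGCs 0 genes of the piRNA, RNA-binding and CCR4-NOT lists rose or fell, and 0 of the Argonaute list rose. Between somatic cells and ESCs 0 piRNA genes were higher, 1 CCR4-NOT gene was higher and 1 lower, and 4 Argonaute genes were higher and 1 lower.

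The member probe sets called between iPGCs and ESCs (2) became 1 without the filter, with the background filter or with 3 pooled groups, and 4 with only the arrays compared. For V6.5 iPGCs they became 1 with a floor, and for Oct4-Gfp iPGCs 1 without the filter. Only the arrays compared gave 3439 probe sets for V6.5 iPGCs against ESCs. *Dazl* 1449502_at gained its call between iPGCs and ESCs in 11 of 23 alternatives. With quantile normalization *Mael* stood at -0.056 between iPGCs and ESCs and *Tdrkh* at -0.057 between somatic cells and ESCs (-0.12 in V6.5), and with median centring *Tdrkh* stood at -0.12, at -0.088 in V6.5 and at -0.14 in Oct4-Gfp somatic cells. The line difference was called for 10 probe sets with a floor, 24 with median centring, 11 with limma-trend, and 0 without the filter, with the background filter, with quantile normalization, with array weights, with only the arrays compared or with the covariate (4335, 3785, 2253, 2530, 2489 and 1317 at an unadjusted p under 0.05 in limma). Between iPGC lines 1 probe set was called with median centring and 932 with limma-trend. Quantile normalization and median centring left 0 piRNA genes lower in iPGCs than in somatic cells, and array weights gave 2 higher in somatic cells than in ESCs. Median centring gave 3 CCR4-NOT genes risen from ESCs to iPGCs, 7 higher in iPGCs than in somatic cells (7 also with limma-trend), 4 Argonaute genes lower in iPGCs than in somatic cells and 5 higher in somatic cells than in ESCs. Limma-trend gave 5 CCR4-NOT genes higher in somatic cells than in ESCs. With background at the 90th percentile 2 member genes were above it on the Oct4-Gfp somatic arrays and on all somatic arrays.

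With 1 array left out, the calls between iPGCs and ESCs numbered 5521 to 11033 (7040 without ESC replicate 1 and 5521 without ESC replicate 2), with 1 to 3 member probe sets. For V6.5 iPGCs they were 2938 to 7148 (3627 and 2938 without those arrays), with 1 to 3 members, for Oct4-Gfp iPGCs 6313 to 11663 (6313 without ESC replicate 2 and 7290 without Oct4-Gfp iPGC replicate 2), with 1 to 2 members, and for the line difference 0 to 3 (where 0, 1692 to 4737 at an unadjusted p under 0.05). From ESCs to iPGCs 2 to 5 piRNA genes rose, 2 to 9 RNA-binding genes rose and 2 to 5 fell, 2 to 5 CCR4-NOT genes rose and 0 to 3 fell, and 2 to 6 Argonaute genes rose. Of piRNA genes 0 to 1 were lower in iPGCs than in somatic cells, and 1 to 2 higher in somatic cells than in ESCs. Between somatic cells and ESCs 3 to 5 CCR4-NOT genes were lower, and 5 to 8 Argonaute genes were higher and 1 to 3 lower. Between iPGCs and ESCs *Mael* ranged from -0.032 to 0.040 and *Ddx4* from -0.069 to 0.22. In V6.5 iPGCs *Ddx4* ranged from -0.43 to 0.047 and *Tdrkh* from -1.17 to 0.00099, and in V6.5 somatic cells *Tdrkh* ranged from -0.14 to 0.24. In the line difference *Tdrkh* ranged from -0.42 to 0.74 and *Dnd1* from -1.20 to 0.066, and between iPGC lines *Tdrkh* ranged from -0.32 to 0.84.

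Whether the replicate numbers pair the arrays could not be decided from 2 arrays in each group. Deviations of replicate 1 correlated between 10 pairs of groups at -0.29 to 0.26, with 2 pairs over 0.1. With the replicate number as a block, 4 member probe sets were called for V6.5 iPGCs against ESCs. Over the alternatives that kept every array, 2040 to 8604 probe sets of the array were called in that comparison. The block left 0 probe sets called for the line difference (2438 at an unadjusted p under 0.05 in limma). With it the adjusted p between iPGCs and ESCs was 0.0533 for *Piwil2* and 0.00311 for *Dazl* 1449502_at.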
